A study of Homo sapiens with 4 samples.

Results

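The N6-methyladenosine (m6A) pathway was examined through 10 genes: the writers METTL3, METTL14 and WTAP, the eraser ALKBH5, the YTH-domain readers YTHDF1, YTHDF2, YTHDF3 and YTHDC1, and the readers IGF2BP2 and IGF2BP3. They were taken by symbol from the deposited expression table, in which each of the 10 has 1 row among 16692 genes. The study sequenced ribosome footprints, the stretches of mRNA that a bound ribosome shields from nuclease, and RNA from SNU-668, an established human gastric cancer line. The series text calls the cells resistant to erastin, an inhibitor of the cystine transporter that induces ferroptosis (an iron-dependent cell death), although the library names read RLS3. An shRNA against ALKBH3 (genotype label ALKBH3 knockdown) was set against a control shRNA (genotype label WT), each with 1 footprint and 1 RNA library, 4 in all. Both groups share the line and the described resistance, and the number of clones or shRNAs behind each library is not stated in the labels. With 1 library per group no difference has a replicate check, no test was run, and each difference is between libraries.

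m6A is the most common internal modification of mRNA. METTL3 transfers the methyl group, METTL14 binds it as a partner that holds the RNA, and WTAP brings the pair to nuclear speckles. ALKBH5 is a demethylase of the AlkB family, to which ALKBH3, an eraser of alkylated bases including m1A, also belongs. YTHDC1 reads the mark in the nucleus and acts in splicing and export. The YTHDF proteins read it in the cytoplasm, where YTHDF2 recruits the CCR4-NOT deadenylase. IGF2BP2 and IGF2BP3 are paralogous RNA-binding proteins reported to stabilise methylated mRNAs, and both are known from tumours.

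The footprint libraries held 3795680 (control) and 3742513 (knockdown-labelled) counts, and the RNA libraries 554075 and 689375. ALKBH3, the targeted gene, had 14 control footprints and 22 in the knockdown-labelled library (log2 ratio 0.59, 95% counting interval -0.36 to 1.54) and 0 RNA counts in both, so the knockdown label was not borne out by footprints. Of 14 gastric and epithelial markers, 9 were in the table used and 1, KRT18, reached 100 footprints over both libraries (462 and 538), and their summed level was 137 and 156 CPM (counts per 1000000, scaled). EPCAM, which defines epithelium, had 0 and 2 footprints, while VIM, an intermediate filament of mesenchymal cells, had 23326 and 16521, and the 5 mesenchymal markers summed to 19275 and 17601 CPM. The 2 blood markers in the table used were at 0 footprints, and VWF of endothelium had 13 and 15.

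Promoter sequence is shown for 3 genes: for ALKBH5 because a row on the opposite strand overlaps its start, and for IGF2BP2 and IGF2BP3 because their footprints moved apart (both below). Each is the 250 bases before a start in RefSeq (GRCh38.p14), 5′ to 3′ on the gene's strand. Entries were taken for 9 of the 10 genes. YTHDF3 was left out of the selection, so whether it has an entry was not looked at. Capitals mark the GC box GGGCGG, the CCAAT box CCAAT, the E-box CACGTG, the TATA box TATAAA and the ATF4 composite element TGATGNAA, each sought on both strands with overlapping copies counted. No link between these letters and the footprints was tested.
ALKBH5, chr17:18183578-18183827, plus strand: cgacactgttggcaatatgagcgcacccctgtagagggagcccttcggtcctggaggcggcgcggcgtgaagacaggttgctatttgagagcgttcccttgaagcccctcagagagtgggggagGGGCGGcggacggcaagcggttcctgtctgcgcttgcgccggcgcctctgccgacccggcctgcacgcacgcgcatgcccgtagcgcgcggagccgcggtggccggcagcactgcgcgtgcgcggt
IGF2BP2, outer start, chr3:185825043-185825292, minus strand: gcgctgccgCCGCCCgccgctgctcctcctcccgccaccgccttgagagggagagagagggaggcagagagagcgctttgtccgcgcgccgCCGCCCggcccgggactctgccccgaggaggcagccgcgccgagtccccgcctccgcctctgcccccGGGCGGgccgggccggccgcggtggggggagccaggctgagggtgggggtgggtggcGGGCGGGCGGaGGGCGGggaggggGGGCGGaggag
IGF2BP2, inner start, chr3:185821143-185821392, minus strand: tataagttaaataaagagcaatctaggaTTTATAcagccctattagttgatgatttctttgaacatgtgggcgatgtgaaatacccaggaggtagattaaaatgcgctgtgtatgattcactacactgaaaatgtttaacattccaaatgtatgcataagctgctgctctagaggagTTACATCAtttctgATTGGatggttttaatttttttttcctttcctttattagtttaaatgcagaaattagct
IGF2BP3, chr7:23470492-23470741, minus strand: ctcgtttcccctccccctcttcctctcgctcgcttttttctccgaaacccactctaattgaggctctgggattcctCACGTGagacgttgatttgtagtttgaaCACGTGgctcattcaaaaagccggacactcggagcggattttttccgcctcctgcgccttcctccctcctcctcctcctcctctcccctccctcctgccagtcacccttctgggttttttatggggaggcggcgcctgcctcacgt
The outer IGF2BP2 window held 7 GC boxes and was 81.6% G or C, and the ALKBH5 window held 1 at 70.0%. GC boxes occur in 42.6% of the 35116 RefSeq windows of this length. The IGF2BP3 window held 2 E-boxes, a motif in 6.34% of windows. The inner IGF2BP2 window, at 32.8% G or C, held 1 TATA box (10.7% of windows), 1 CCAAT box (32.0%) and 1 ATF4 element (3.14%). The paralogs thus shared none of the 5 motifs in these windows.

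The first comparison asked whether ribosome occupancy of the m6A machinery differed between the knockdown-labelled and control cells. Footprints of 8 of the 9 genes with counts were indistinguishable between the libraries within counting error, and those of IGF2BP3 were lower in the knockdown-labelled library. YTHDF3 was listed at 0 in both. None of the 9 was 1.5-fold apart, where 9.5% of the 7050 genes with at least 100 footprints were (4.89% higher, 4.61% lower). None was 2-fold apart, where 1.3% were (0.879% higher, 0.426% lower). The 2-fold split of all genes, 62 higher and 30 lower, was 92 and 19 with deposited RPKM and 81 and 21 with plain totals. A counting interval leaving out 0 was found for 1 of 9, against 40.5% of all measured genes (18.2% above 0, 22.3% below), so the count among the 9 genes gives no excess over the background. Their median log2 ratio was 0.06, beside -0.02 for all measured genes. Summed footprints were 2124 in the control library and 2224 in that labelled knockdown, a log2 ratio of 0.02 (-0.07 to 0.11). In a bulk lysate, fewer cells translating a gene and fewer ribosomes per cell cannot be told apart.

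**Figure D1:**
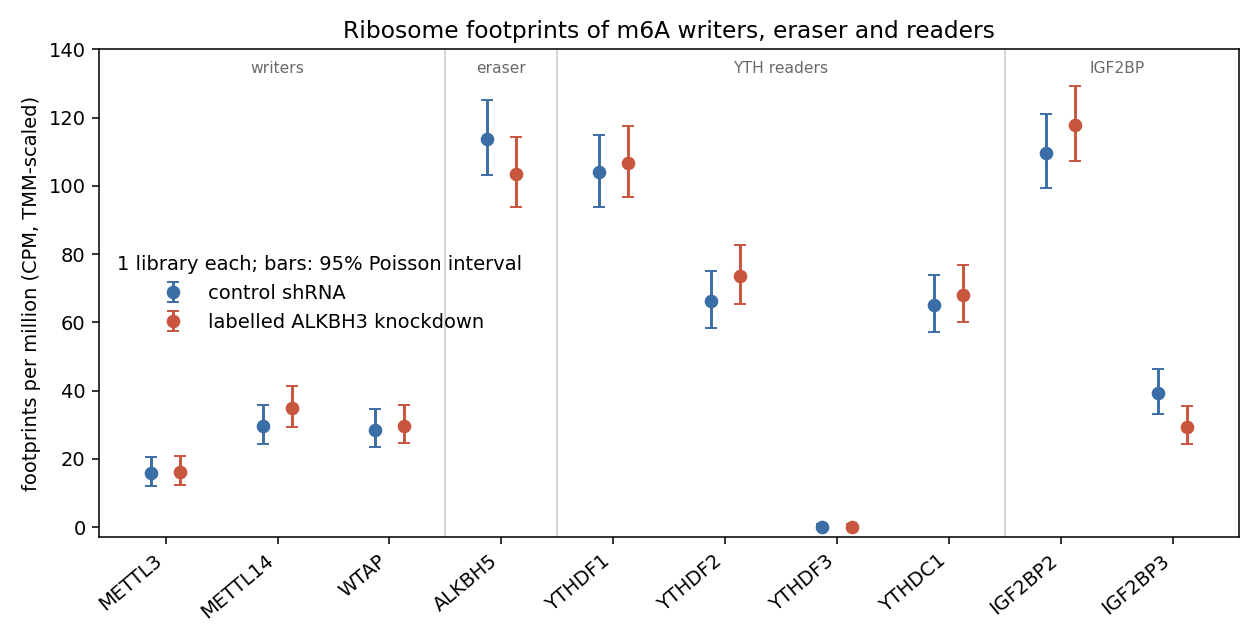
Footprint CPM of the 10 genes in the control library (blue) and the knockdown-labelled library (red), 1 library each, with exact 95% Poisson intervals. The 2 points of each gene lie close together, with IGF2BP3 at 39.4 and 29.5 CPM, and YTHDF3 is at 0 in both.

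Of the writers, METTL3, the catalytic subunit (ENSG00000165819, chromosome 14, 21966282 to 21979517, minus strand of hg19), was at 59 footprints in the control library and 62 in that labelled knockdown. These correspond to 15.9 (12.1 to 20.5) and 16.2 (12.4 to 20.7) CPM, and the log2 ratio was 0.02 (-0.49 to 0.54). It was the least covered of the measured genes, so a change of up to 1.45-fold upward lies within its interval. METTL14 (ENSG00000145388, chromosome 4, 119606523 to 119636588, plus strand) had 110 and 134 footprints, or 29.7 (24.4 to 35.8) and 35.0 (29.3 to 41.4) CPM. Its log2 ratio of 0.24 (-0.13 to 0.60) was the highest of the 9, and its interval held 0. WTAP (ENSG00000146457, chromosome 6, 160146617 to 160177351, plus strand) had 106 and 114 footprints, 28.6 and 29.8 CPM, at 0.06 (-0.32 to 0.44). The 3 writers thus differed by less than counting error in either direction.

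The eraser ALKBH5 (ENSG00000091542, chromosome 17, 18087553 to 18113268, plus strand) had 422 and 397 footprints, or 114 (103 to 125) and 104 (93.7 to 114) CPM. The log2 ratio was -0.13 (-0.33 to 0.06), and the intervals of the 2 levels overlap. FTO, the other known m6A eraser, had 130 and 137 footprints, at 0.03 (-0.32 to 0.37). Among the 4 AlkB family members with at least 100 footprints, ALKBH7, a mitochondrial member, had the value furthest from 0, going from 237 to 157 footprints (-0.64, -0.93 to -0.35). The intervals of the other 3 (ALKBH2, ALKBH5 and FTO) held 0. Over all measured genes 22.3% had intervals below 0. ALKBH7 was also at least 1.5-fold lower, as were 4.61% of all measured genes.

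Of the YTH readers, YTHDF1, reported to promote translation of methylated mRNAs (ENSG00000149658, chromosome 20, 61826781 to 61847586, minus strand), had 386 and 409 footprints, or 104 and 107 CPM. Its log2 ratio was 0.04 (-0.16 to 0.24). YTHDF2 (ENSG00000198492, chromosome 1, 29063271 to 29096287, plus strand) had 246 and 282 footprints, 66.3 and 73.6 CPM, at 0.15 (-0.10 to 0.40). The nuclear reader YTHDC1 (ENSG00000083896, chromosome 4, 69176105 to 69215807, minus strand) had 242 and 261, 65.3 and 68.1 CPM, at 0.06 (-0.19 to 0.31). All 3 values lay slightly above 0 with intervals that held it.

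YTHDF3 (ENSG00000185728, chromosome 8, 64081121 to 64125346, plus strand), which acts with the other YTHDF proteins, was listed at 0 footprints in both libraries, and a limit of 3 counts allows up to 0.809 CPM (control) and 0.783 CPM (knockdown-labelled). The Poisson intervals drawn in the plot of CPM levels are wider and reach 0.995 and 0.963 CPM. These limits cover reads assigned to that row and bound no protein level. Of 13934 protein-coding rows, 1264 (9.07%) were at 0 in both footprint libraries, and these include the widely expressed genes G3BP1, RBMX and CNOT3, singled out after their values were seen. The treatment of reads matching several places is not stated in the labels.

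Within a library, the share of each YTHDF paralog does not depend on library scaling. YTHDF1 took 61.1% of YTHDF footprints in the control (386 of 632, exact binomial interval 57.2% to 64.9%) and 59.2% in the knockdown-labelled library (409 of 691, 55.4% to 62.9%). The rest was YTHDF2, at 38.9% and 40.8%. The intervals overlap, and the YTHDF1 to YTHDF2 ratio changed by a factor of 0.924 (0.741 to 1.15).

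The 2 IGF2BP readers went in opposite directions by value. IGF2BP2 (ENSG00000073792, chromosome 3, 185361527 to 185542844, minus strand) had 407 footprints in the control library and 452 in that labelled knockdown, or 110 (99.3 to 121) and 118 (107 to 129) CPM. Its log2 ratio was 0.10 (-0.09 to 0.30). IGF2BP3 (ENSG00000136231, chromosome 7, 23349828 to 23510086, minus strand) had 146 and 113 footprints, or 39.4 (33.2 to 46.3) and 29.5 (24.3 to 35.5) CPM. Its level was 0.75 of the control (0.587 to 0.959), a log2 ratio of -0.41 (-0.77 to -0.06). The interval held 0 when column totals without TMM factors or the deposited RPKM set the scale, and 10.7% of all measured genes had a lower log2 ratio. Footprints of MALSU1, which overlaps the 3′ end of IGF2BP3 on the opposite strand, were also lower, from 510 to 428 (-0.30, -0.48 to -0.11), and its part in the IGF2BP3 value was not tested.

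The split between the paralogs does not depend on scaling. The ratio of IGF2BP2 to IGF2BP3 footprint counts was 2.79 (2.31 to 3.37) in the control library and 4.0 (3.25 to 4.92) in that labelled knockdown. It was thus 1.43-fold higher in the latter, with an interval of 1.08 to 1.90. Among the 36 pairs of the 9 measured genes, 5 had such a change whose interval left out no change, and IGF2BP3 was in all 5, against METTL14, YTHDF1, YTHDF2, YTHDC1 and IGF2BP2. Over all pairs of measured genes 38.2% had such an interval, so 5 of 36 is no excess. That share takes in changes of any size and genes of every depth, so it does not tell how common a 1.43-fold split is. IGF2BP1, the remaining paralog, had no row in the table used and was not analysed here.

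**Figure D2:**
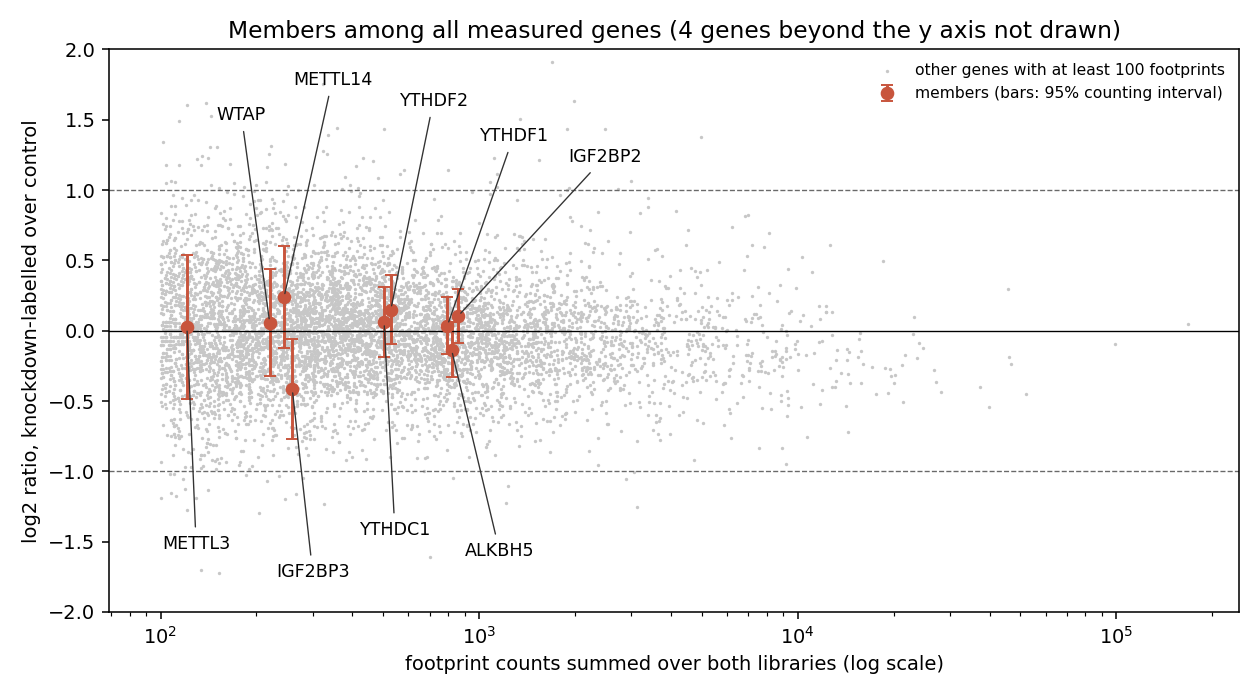
The log2 ratio of footprints (knockdown-labelled over control) against the footprint counts summed over both libraries (log scale), for the 9 measured genes (red, 95% counting intervals) among all 7050 genes with at least 100 footprints (grey), with dashed lines at 2-fold. The 9 genes lie between -0.41 (IGF2BP3) and 0.24 (METTL14), inside the grey cloud.

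The spread of all genes sets these values in scale. Among the 4729 genes with summed counts in the range of the 9 genes (121 to 859), the central 95% of log2 ratios ran from -0.70 to 0.75, with a standard deviation of 0.37, where counting alone gave a median error of 0.17. All 9 genes lay inside that range. The half-width of their counting intervals ran from 0.19 for IGF2BP2 to 0.51 for METTL3 on the log2 scale, so smaller differences were not detectable at this depth.

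Levels were compared between genes on the deposited RPKM scale (reads divided by a gene's length and its library's size). In the control, ALKBH5 was highest at 69.0 RPKM (62.6 to 75.9), above IGF2BP3 at 51.5 (43.5 to 60.6). YTHDF1, METTL3 and IGF2BP2 followed at 34.3, 33.5 and 32.1 RPKM, and neighbours within this trio did not differ beyond counting error, while IGF2BP3 above it and YTHDF2 below it did. YTHDF2 at 22.5, YTHDC1 at 16.9 and WTAP at 13.3 RPKM came next, and METTL14 was last at 11.6 (9.50 to 13.9), within the counting error of WTAP. In the knockdown-labelled library IGF2BP3 stood at 41.9 RPKM, within the counting error of YTHDF1 at 38.3, and METTL3 (37.0) and IGF2BP2 (37.5) changed places within error. ALKBH5 had a higher RPKM than 77.0% of the protein-coding genes measured in footprints, and METTL14 than 27.7%.

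Part of this order rests on the lengths behind the deposited RPKM. Counts divided by RPKM imply a length of 464 bases for METTL3 and 747 for IGF2BP3, against 2508 for METTL14 and 3342 for IGF2BP2, although METTL3 is a larger protein than METTL14 and the IGF2BP paralogs are of similar size. In the RNA RPKM the implied METTL14 length is 1.22 times that of METTL3, against 5.41 times in the footprint RPKM, and that of IGF2BP2 is 0.607 times that of IGF2BP3, against 4.48 times. The METTL14 to METTL3 ratio in the control was thus 0.345 (0.251 to 0.473) by footprint RPKM, 1.86 (1.36 to 2.56) by counts and 1.53 (1.12 to 2.10) with the RNA lengths. In the knockdown-labelled library it was 0.40, 2.16 and 1.77. Likewise IGF2BP2 to IGF2BP3 in the control was 0.623 by footprint RPKM, 2.79 by counts and 4.59 with the RNA lengths. Which of METTL3 and METTL14, or of IGF2BP2 and IGF2BP3, was more densely occupied was therefore not settled, while ALKBH5 came first on both length scales in both libraries. The change of a ratio between libraries is free of the length: METTL14 to METTL3 changed by a factor of 1.16 (0.749 to 1.79).

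The second comparison concerned RNA, for which the counts of these genes were few. WTAP had 105 RNA counts in the control library and 217 in that labelled knockdown, and METTL3 had 35 and 36. The other 8 genes together had 4 and 28, from 0 to 2 each in the control and from 1 to 8 each in the knockdown-labelled library. WTAP alone passed 100 RNA counts over both libraries, which 94.6% of the protein-coding genes measured in footprints did not. WTAP and METTL3 held 97.2% of the RNA counts of the 10 genes in the control but 7.77% of their footprints. RNA and footprint counts lay far apart elsewhere too. VIM had 47 and 104 RNA counts beside 23326 and 16521 footprints. KRT8, named after its values were seen, had 208 and 511 RNA counts beside 17 and 15 footprints. The reason was not tested, and it limits the RNA values that follow.

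The RNA log2 ratio of WTAP was 0.61 (0.27 to 0.94), higher in the knockdown-labelled library at 302 against 198 CPM. Among 1311 genes with at least 100 RNA counts, 15.1% had an interval above 0 and 8.47% were at least 1.5-fold higher by this rule, which WTAP met. With median-of-ratios size factors the RNA log2 ratio of WTAP was 0.50, under 1.5-fold. No row overlapped WTAP on the opposite strand. METTL3 was at -0.39 (-1.06 to 0.27). For footprints over RNA, WTAP was at -0.55 (-1.06 to -0.04), with 0.06 for its footprints and 0.61 for its RNA. An interval below 0 was found for 21.8% of 381 genes measured in both assays. With median-of-ratios size factors the 2 WTAP values were 0.08 and 0.50, a smaller gap, and an interval of like width around it holds 0. With plain totals they were 0.12 and 0.73, a wider gap. METTL3 was at 0.42 (-0.42 to 1.26). The 8 other genes gave no such value. Summed over all 10 genes, RNA was 144 and 281 counts, a log2 ratio of 0.53 (0.24 to 0.81), and WTAP held 72.9% and 77.2% of these counts. Beside this, 5580 other protein-coding genes measured in footprints with under 10 RNA counts in each library had 5247 and 10633 counts, a log2 ratio of 0.58 (0.53 to 0.63). The 8 genes other than WTAP and METTL3, each also with under 10 RNA counts in each library, summed to 4 and 28 counts. Their summed log2 ratio was 2.25 (0.82 to 3.69), from a control sum under the 10 counts required for a ratio here.

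Rows on the opposite strand overlapped 3 of the 10 genes. TOX4, a chromatin protein gene (chromosome 14, 21944914 to 21967319, plus strand), shares 1038 bases with the 3′ end of METTL3 and had 210 and 281 RNA counts beside 59 and 65 footprints. MALSU1, a mitochondrial ribosome assembly gene (chromosome 7, 23338819 to 23351348, plus strand), shares 1521 bases with the 3′ end of IGF2BP3 and had 1147 and 1165 RNA counts, where IGF2BP3 had 0 and 4. RP11-258F1.1, of antisense biotype (chromosome 17, 18079879 to 18088067, minus strand), shares 515 bases with the 5′ end of ALKBH5 and had 67 and 94 RNA counts and 0 footprints, where ALKBH5 had 1 and 4 RNA counts. In each of the 3 pairs the row with more RNA was the partner.

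The RNA log2 ratio of the partner was -0.02 (-0.28 to 0.24) for TOX4, beside -0.39 (-1.06 to 0.27) for the RNA of METTL3. It was -0.42 (-0.53 to -0.30) for MALSU1 and 0.05 (-0.40 to 0.50) for RP11-258F1.1. IGF2BP3 and ALKBH5 had too few RNA counts for a ratio to set beside these. The treatment of strand in counting is not stated in the labels, and from which strand the RNA reads of these overlaps came was not tested.

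**Figure D3:**
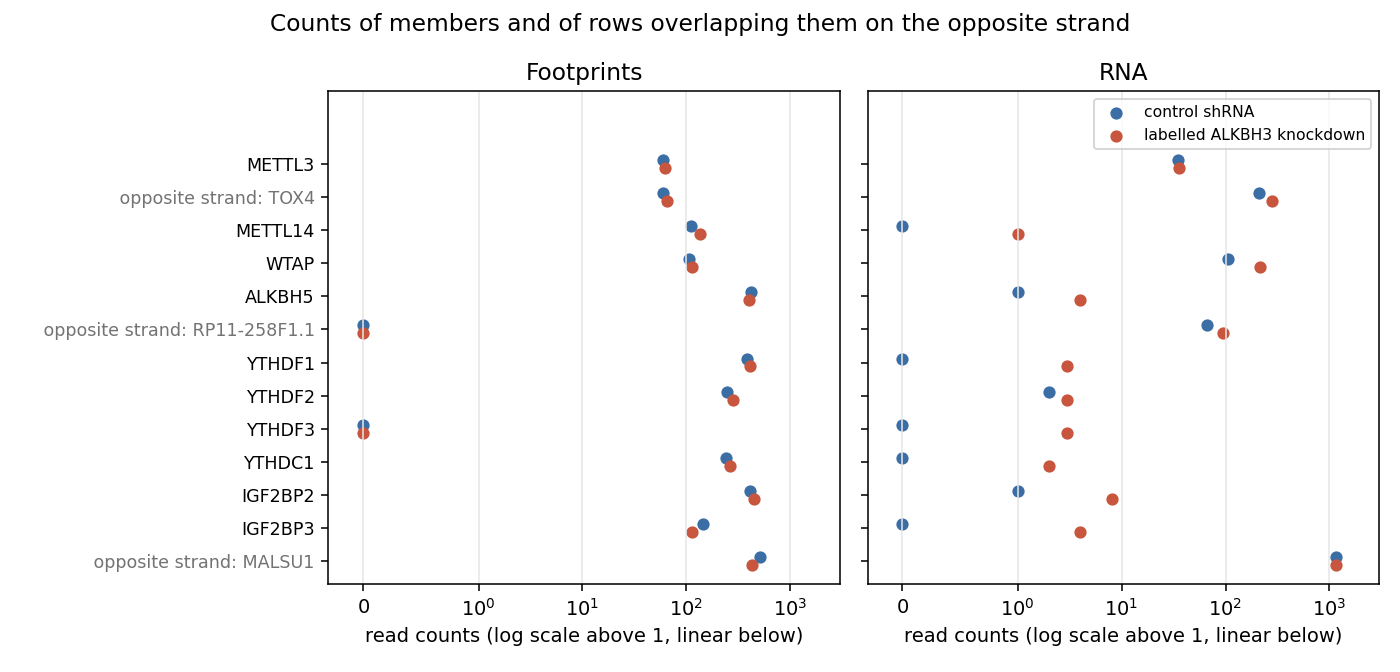
Footprint counts (left) and RNA counts (right) of the 10 genes and, in grey type, of the rows overlapping them on the opposite strand, in the control (blue) and knockdown-labelled (red) libraries; the axis is logarithmic above 1 and linear below. In RNA only WTAP and METTL3 among the 10 genes exceed 8 counts, while TOX4, RP11-258F1.1 and MALSU1 have 67 or more.

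The pathway around these genes was examined through 5 further lists, of which 30 genes had at least 100 footprints. Intervals lay above 0 for 7, below 0 for 9 and held 0 for 14, with a median log2 ratio of -0.07, so directions were mixed. Over all measured genes 18.2% lay above 0 and 22.3% below, and these shares are the background of each list count that follows. None of the 30 was 1.5-fold apart, against 9.5% of all measured genes. The lists are small and were not tested, and their intervals were counted with TMM scaling alone. Plain totals moved the median of all measured genes up by 0.07. Some genes called above, below or at 0 here had a bound nearer 0 than that. The balance of intervals above and below 0 therefore depends on the scaling. Of 4 measured partners of the writer complex, 0 had intervals above 0 (18.2% of all measured genes) and 2 below (22.3%). ZC3H13, which keeps the complex in the nucleus, went from 319 to 262 footprints (-0.33, -0.57 to -0.09). RBM15, which brings the complex to its RNA targets, went from 283 to 246 (-0.25, -0.49 to -0.0021). Its upper bound lies nearer 0 than the 0.02 by which median-of-ratios size factors moved the median of all measured genes. Its place among the 2 below 0 thus depends on the scaling. Its paralog RBM15B was at -0.21 (-0.54 to 0.12), and VIRMA, the scaffold of the complex, listed as KIAA1429, was at 0.16 (-0.02 to 0.34) with 459 and 529.

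Other RNA adenosine methyltransferases and cofactors had 1 of 4 measured intervals above 0 and 0 below. METTL5, which methylates 18S ribosomal RNA, went from 285 to 383 footprints (0.38, 0.16 to 0.60). TRMT112, its cofactor, was at 0.25 (-0.04 to 0.53), PCIF1, which methylates cap-adjacent adenosine, at 0.14 (-0.10 to 0.38), and ZCCHC4, which methylates 28S ribosomal RNA, at 0.01 (-0.45 to 0.47). METTL16, which methylates the MAT2A mRNA, had 4 and 7 footprints, too few to measure.

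Other reported m6A-binding proteins had 2 of 9 measured intervals above 0 and 4 below, with a median of -0.11. HNRNPA2B1, a nuclear RNA-binding protein, went from 8778 to 7008 footprints (-0.37, -0.42 to -0.33), and FXR1, a relative of the fragile X protein, from 2123 to 1655 (-0.41, -0.50 to -0.31). PRRC2A went from 1212 to 1020 (-0.30, -0.42 to -0.18), and HNRNPC, which binds RNA opened by m6A, from 586 to 758 (0.32, 0.17 to 0.48). YTHDC2, a helicase with a YTH domain, had 51 and 47 footprints, under the minimum.

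Genes of mRNA decay that act with YTHDF2 had 3 of 8 measured intervals above 0 and 1 below, with a median of 0.17. Of its 5 measured CCR4-NOT subunits, 3 had intervals above 0: the scaffold CNOT1 went from 718 to 884 footprints (0.25, 0.11 to 0.40), the deadenylase CNOT6 from 129 to 189 (0.50, 0.18 to 0.83) and CNOT11 from 319 to 421 (0.35, 0.14 to 0.56). The intervals of CNOT4 (0.32, -0.16 to 0.80) and CNOT9 (0.08, -0.23 to 0.39), named after their values were seen, held 0. So did those of POP1 (-0.28, -0.60 to 0.04) and TNKS1BP1 (-0.22, -0.50 to 0.05) of the same list, also named afterwards. UPF1, the helicase of nonsense-mediated decay, went from 1379 to 1132 (-0.33, -0.44 to -0.22). Of 5 splicing and export partners of YTHDC1, 1 interval lay above 0 and 2 below. The splicing factor SRSF7 went from 124 to 175 (0.45, 0.12 to 0.78), SRSF3 from 1023 to 945 (-0.16, -0.29 to -0.03) and the export cofactor NXT1 from 237 to 174 (-0.49, -0.77 to -0.21), while SRSF10 was at -0.12 (-0.47 to 0.23).

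**Figure D4:**
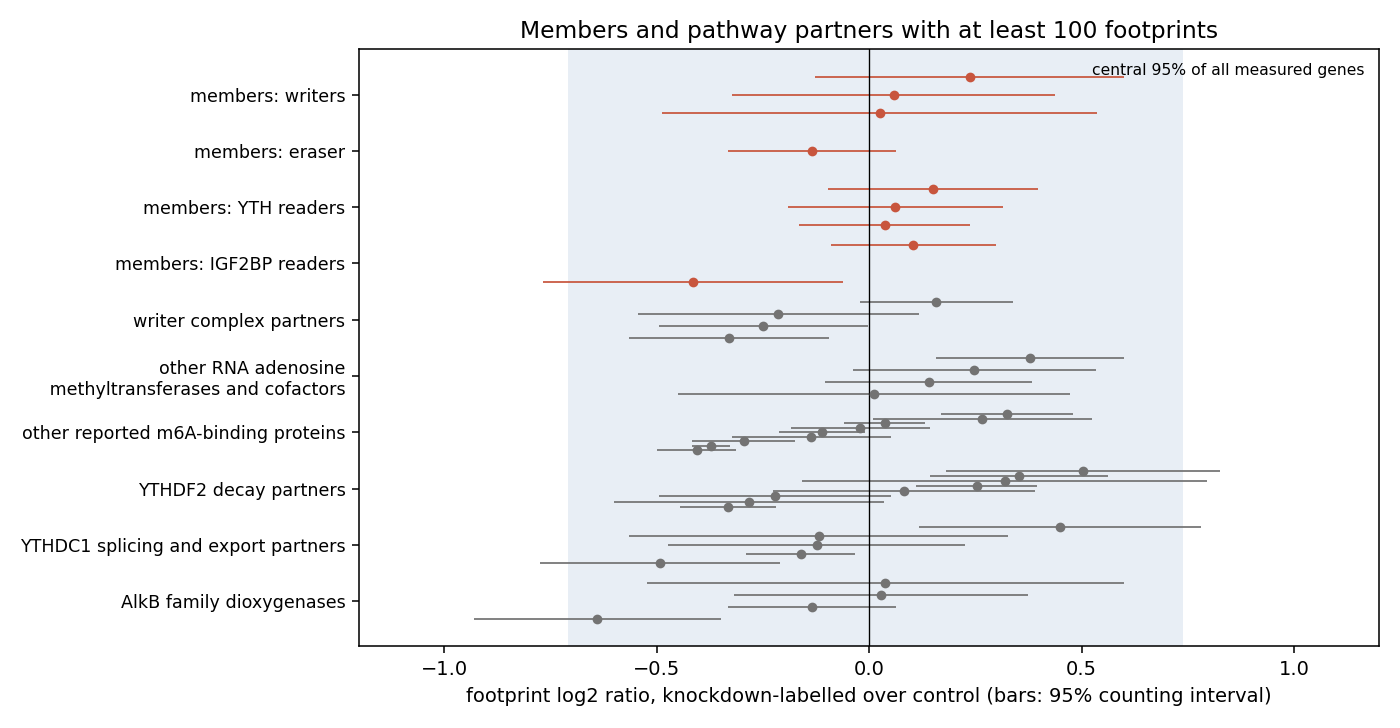
Footprint log2 ratios with 95% counting intervals for the measured genes of the pathway (red, upper 4 groups) and for the partner lists and AlkB family (grey), with the central 95% of all measured genes shaded (-0.71 to 0.74). All points lie inside the shaded band, and the lists hold values on both sides of 0.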

How the data were processed

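Ribosome footprints and RNA were counted in 1 library per group, with groups taken from the titles. Per the submitters' processing notes, FastQC, cutadapt, Bowtie, STAR and hg19 were used. The read counter and its handling of strand and of multi-mapping reads are not given in the sources used here. Deposited counts are raw reads per gene, per the file headers, and the deposited RPKM values are the authors', with lengths and totals not stated. The 2 columns of deposited translational efficiency were not used.

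Counts were scaled to counts per 1000000 (CPM) by TMM factors (edgeR 4.0.16, R 4.3.3). A log2 ratio sets the knockdown-labelled against the control library with a prior count of 0.5, with 95% intervals from counting error, and levels have exact Poisson intervals. Without molecular identifiers, PCR reads are no independent molecules, and intervals and limits cover counting error only. A gene is measured with at least 100 counts over both libraries of an assay. A gene is called 2-fold or 1.5-fold apart when its interval also leaves out 0. A count of 0 allows up to 3 counts. RNA ratios needed 10 counts in both libraries. Implied lengths are counts divided by RPKM and the column total, and hold up to a constant.

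The genes and lists were chosen with earlier results of these data known. Named genes were the 10 genes, ALKBH3, rows overlapping the 10 on the opposite strand, the 4 measured genes of each list furthest from 0 by the interval bound nearest 0, and FTO, IGF2BP1, YTHDC2, METTL16 and VIRMA; exceptions are stated. Alternatives were other scalings (DESeq2 1.42.0 size factors among them), filters, prior count and length. The calculation was tested on simulated counts.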

Additional observations from a re-analysis of the deposited data

How the results depend on the processing

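The footprint log2 ratio of each of the 9 measured genes stayed inside its main counting interval and kept its sign under 5 alternatives (totals without TMM, size factors, deposited RPKM with 0.1 added, a prior count of 5, no mitochondrially encoded genes), as did the RNA ratios of WTAP and METTL3 under 3. IGF2BP3 ran from -0.41 to -0.30, and its interval held 0 with plain totals and with RPKM. With RPKM the intervals of YTHDF2 (0.27) and IGF2BP2 (0.22) lay above 0, where the median of all measured genes also stood 0.12 higher. Lengths reversed the order within 2 pairs. METTL14 to METTL3 was 1.86 and 2.16 (control, knockdown-labelled) by counts and 1.53 and 1.77 with RNA-implied lengths, an alternative chosen after seeing the data. IGF2BP2 to IGF2BP3 was 2.79 and 4.0 by counts and 4.59 and 6.59 with those lengths. Genes at least 2-fold higher and lower, 62 and 30, numbered 201 and 111 at 20 footprints, 225 and 143 at 1 footprint (more genes tested) and 345 and 325 with a 1.5-fold minimum. The balance moved with scaling: 92 were higher and 19 lower with RPKM, and 81 and 21 with plain totals, where the median of all measured genes also moved up (by 0.12 and 0.07). No paired analysis was possible because each group has 1 library, and leaving out a replicate could not be run. Low counts limit RNA most: 8 of the 10 genes had at most 8 RNA counts in a library. VIM, with 23326 and 16521 footprints, had 47 and 104, and whether depth accounts for low RNA counts was not tested.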

Other observations

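A list drawn up around S-adenosylmethionine, the methyl donor of the writers, had 3 of 5 measured footprint intervals above 0 and 1 below. Its median log2 ratio was 0.17 beside -0.02 for all measured genes, of which 18.2% had intervals above 0 and 22.3% below. MAT2A, the catalytic subunit of the synthetase, went from 663 to 794 footprints (0.21, 0.06 to 0.36), and MAT2B, its regulatory subunit, from 165 to 214 (0.33, 0.04 to 0.62). AHCYL1, an AHCY-like gene by name, went from 1382 to 1602 (0.17, 0.06 to 0.27), and its value is the list's median. Whether AHCYL1 has a part in S-adenosylmethionine supply was not examined. AHCY, which breaks down the product S-adenosylhomocysteine, went from 1580 to 1313 (-0.31, -0.42 to -0.21).

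Of 6 measured mRNAs reported as IGF2BP clients, 5 had intervals below 0 and 0 above, with a median of -0.46, where 22.3% of all measured genes had intervals below 0. That share is not at like depth, since intervals narrow as counts rise. CD44, named after its value was seen, had 7531 and 7005 footprints and counts among the 5 at -0.15 (-0.20 to -0.10). MARCKSL1 went from 284 to 156 footprints (-0.91, -1.19 to -0.63), FSCN1, an actin-bundling protein, from 2216 to 1488 (-0.62, -0.72 to -0.53), ACTB from 6007 to 4266 (-0.54, -0.60 to -0.48) and TK1, a thymidine kinase of dividing cells, from 1074 to 853 (-0.38, -0.51 to -0.25). MYC, a well-known client singled out after its value was seen, was at 0.06 (-0.09 to 0.21) with 713 and 768. These are single libraries and 6 genes, the list was not tested, and no link to the lower IGF2BP3 footprints was tested.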
